A study of Mus musculus with 26 samples.

Results

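The p200 genes of the mouse form a cluster on chromosome 1 whose products typically carry the DNA-binding HIN domain. They were taken here as the rows with counts whose gene name begins with Ifi20 or is Mndal, which gave 10 of 47642 genes. The genes were Ifi202b, Ifi203, its annotated pseudogene Ifi203-ps, Ifi204, Ifi205, Ifi206, Ifi207, Ifi208, Ifi209 and Mndal. Ifi205 was chosen by its measured values in these libraries. In the fit to all libraries it had the lowest log2 fold change and the smallest p of 12291 genes for castration in gene-trap mice, and the 9th lowest log2 fold change for castration in wild-type mice. Its castration effects are therefore given as a description with no test, whereas the other 9 genes entered by name. The naming rule and the tests were themselves chosen with earlier results of these data known.

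Left ventricles came from male mice aged 40 days, after castration or sham surgery at an age of about 10 days. Mice carried the UtyGt(XS0378)Wtsi gene trap, an inserted cassette in intron 4 of Uty, a Y-linked gene related to the histone demethylase gene Kdm6a, or were wild type. Both genotypes were on the isogenic C57BL/6.Y<129P2> background. There were 7 gene-trap castrated, 7 wild-type castrated, 6 gene-trap sham and 6 wild-type sham libraries, made by 3′ end RNA sequencing, which counts tags near the 3′ end of polyadenylated transcripts. The labels call the libraries separate samples without stating how animals map to them, so the p-values rest on the spread between these libraries, which may be technical. The gene trap is a single insertion that is not restricted to a cell type.

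Gene counts per library were 6357485 to 9399241. A count of 0 allows up to 0.311 to 0.480 CPM by the 3-count limit, which covers counting error only. CPM are counts per library total of gene counts, after correction of that total for composition. Uty was at 0 to 1.06 CPM in gene-trap castrated and 6.59 to 11.8 CPM in wild-type castrated libraries, and at 0.124 to 0.723 CPM in gene-trap sham and 6.55 to 10.4 CPM in wild-type sham libraries. On the first principal component, the 20 libraries of the other 3 groups lay between -26.0 and 37.3, while 5 of 6 wild-type sham libraries lay between -78.2 and -33.6 and wild-type sham replicate 6 at 3.41. On the second component, gene-trap castrated replicates 1 to 4 lay between -39.7 and -28.1. The 8 cardiomyocyte markers summed to 52497 to 83223 CPM (gene-trap castrated), 51897 to 88046 CPM (wild-type castrated), 57955 to 72960 CPM (gene-trap sham) and 63391 to 115433 CPM (wild-type sham), and none of them was at 0 in all libraries.

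Interferons bind receptors on the cell surface, and the signal passes through JAK kinases and STAT factors to genes whose promoters hold interferon-responsive elements. Several p200 genes are among these targets. Their proteins bind double-stranded DNA through the HIN domain, and most also have a pyrin domain, through which they can join other proteins. Castration removes the testes, the main source of testosterone.

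The 10 genes lay on GRCm38 within chr1:173468485-174031810, a stretch of 563.326 kb, with Ifi206 at its low end and Ifi205 (ENSMUSG00000054203, minus strand, chr1:174011998-174031810) at its high end. Ifi208 and Ifi209 were on the plus strand and the other 8 on the minus strand. The annotated spans of Mndal (chr1:173849126-173942491) and Ifi203 (chr1:173920407-173942672) overlapped by 22085 bases on 1 strand, but their exons by only 37 bases.

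RefSeq promoter windows (GRCm38.p6, 250 bases before to 50 bases after a start) were found for 8 of the 10 genes, in 10 windows, with no entry used for Ifi204 or Ifi203-ps and 2 windows each for Mndal and Ifi203. Windows were searched on both strands for GAAANNGAAA, the core of an interferon regulatory factor site, in which N is any base. It occurred in 7 of 10 windows and in 6 of 8 genes, against 3.44% of all 32851 windows and 3.99% of 27025 genes. Some member windows are near copies of one another, as given below, so the member counts are not counts of independent sequences. The windows of Ifi209 and Ifi202b and the second window of Ifi203 held no match. The windows of Ifi205, of its neighbour by sequence Ifi207, and of the pair Mndal and Ifi203 are shown because these genes carry the results below; for Mndal and Ifi203 only the window with the match GAAATCGAAA is shown. All run 5′ to 3′ on the minus strand of chromosome 1, with matches on either strand in capitals.
Ifi205 (chr1:174031706-174032005): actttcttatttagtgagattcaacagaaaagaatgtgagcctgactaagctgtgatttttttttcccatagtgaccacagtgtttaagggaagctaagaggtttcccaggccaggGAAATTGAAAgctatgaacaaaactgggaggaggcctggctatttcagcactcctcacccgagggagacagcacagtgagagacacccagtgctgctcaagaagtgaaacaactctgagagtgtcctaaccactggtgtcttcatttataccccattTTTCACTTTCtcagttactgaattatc
Ifi207 (chr1:173741760-173742059): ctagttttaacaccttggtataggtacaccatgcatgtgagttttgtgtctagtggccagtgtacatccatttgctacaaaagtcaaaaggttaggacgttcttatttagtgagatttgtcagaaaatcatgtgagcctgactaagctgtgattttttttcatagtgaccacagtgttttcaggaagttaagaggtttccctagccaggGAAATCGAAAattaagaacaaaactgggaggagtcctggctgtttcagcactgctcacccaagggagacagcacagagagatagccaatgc
Mndal (chr1:173880138-173880437): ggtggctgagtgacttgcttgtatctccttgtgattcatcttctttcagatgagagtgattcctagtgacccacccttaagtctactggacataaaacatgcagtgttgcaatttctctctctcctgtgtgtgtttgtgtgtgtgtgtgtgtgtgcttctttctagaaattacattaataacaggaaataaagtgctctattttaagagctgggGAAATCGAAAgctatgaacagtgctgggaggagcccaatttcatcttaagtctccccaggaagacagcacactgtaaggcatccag
Ifi203 (chr1:173942443-173942742): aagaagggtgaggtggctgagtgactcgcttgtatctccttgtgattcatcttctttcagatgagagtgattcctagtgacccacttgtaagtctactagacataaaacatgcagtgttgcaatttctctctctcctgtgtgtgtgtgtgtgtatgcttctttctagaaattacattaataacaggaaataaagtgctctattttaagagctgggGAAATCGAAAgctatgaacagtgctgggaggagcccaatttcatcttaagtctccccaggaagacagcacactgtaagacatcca

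In the windows of Ifi207, Mndal and Ifi203 that are shown, and in those of Ifi206 and Ifi208, the match read GAAATCGAAA and began 35 to 58 bases before the annotated start. The other Mndal window held a match on the opposite strand, TTTCTCTTTC as read along the window, beginning 54 bases before its own start. The Ifi205 window read GAAATTGAAA, beginning 134 bases before the start, and held a further match on the opposite strand, printed as TTTCACTTTC, beginning 23 bases after the start. The Ifi206 and Ifi208 windows were identical in 98.9% of 282 aligned columns. The Mndal and Ifi203 windows that are shown were identical in 94.3% of 299 aligned columns, and those of Ifi207 and Ifi205 in 86.6% of 209. A STAT motif, TTCNNNGAA, was in 1 member window (Ifi202b) and in 8.30% of all windows. The androgen receptor palindrome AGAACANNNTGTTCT was in no member window and in 0.00913% of all windows, while its 6-letter part AGAACA was in 1 member window (Ifi207) and in 19.0% of all. These motifs do not overlap one another in the windows shown, except that AGAACA is part of the palindrome. A match is a run of letters only, and binding was not measured.

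Counts of the family were low and uneven. Ifi203 held 4562 and Mndal 4440 counts summed over the 26 libraries, a mean of 175 and 171 per library. Ifi207 followed with 630 counts, Ifi205 with 524, Ifi203-ps with 506, Ifi204 with 465 and Ifi208 with 249. Ifi209 had 127 counts and Ifi206 97, too few to pass the count filter, and Ifi202b had 16. Levels of different genes are not set against each other as abundance, since 3′ end tags also depend on how each transcript end is annotated.

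Paralogous transcript ends limited what the counts can assign. The measure was the percentage of 31-nt words in the last 400 nt of each gene's GENCODE M21 transcripts that also occur in another gene. It was 51.6% for Ifi209, 46.6% for Ifi205, 40.5% for Ifi208, 36.5% for Ifi203-ps and Mndal, 35.7% for Ifi206, 17.6% for Ifi203, 9.90% for Ifi207, 9.73% for Ifi204 and 2.70% for Ifi202b. For Ifi205 the recurring words were in Ifi211, a p200 gene of the same cluster whose name falls outside the rule, which shared 46.6%, and in Mndal, which shared 13.9%. In each column 41.9% to 46.8% of the reads had no unique alignment, and such reads are outside the gene counts. This share was 45.9% to 46.8% in gene-trap castrated replicates 1 to 4 and 42.4% to 43.4% in replicates 5 to 7. It was 41.9% to 44.6% in wild-type castrated, 42.0% to 43.9% in gene-trap sham and 43.5% to 45.9% in wild-type sham libraries. The part of these differences in the p200 values was not tested. The levels of Ifi205, Ifi208, Ifi209, Ifi206, Ifi203-ps and Mndal are therefore uncertain, and no source used here states whether reads were counted by strand.

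**Figure D1:**
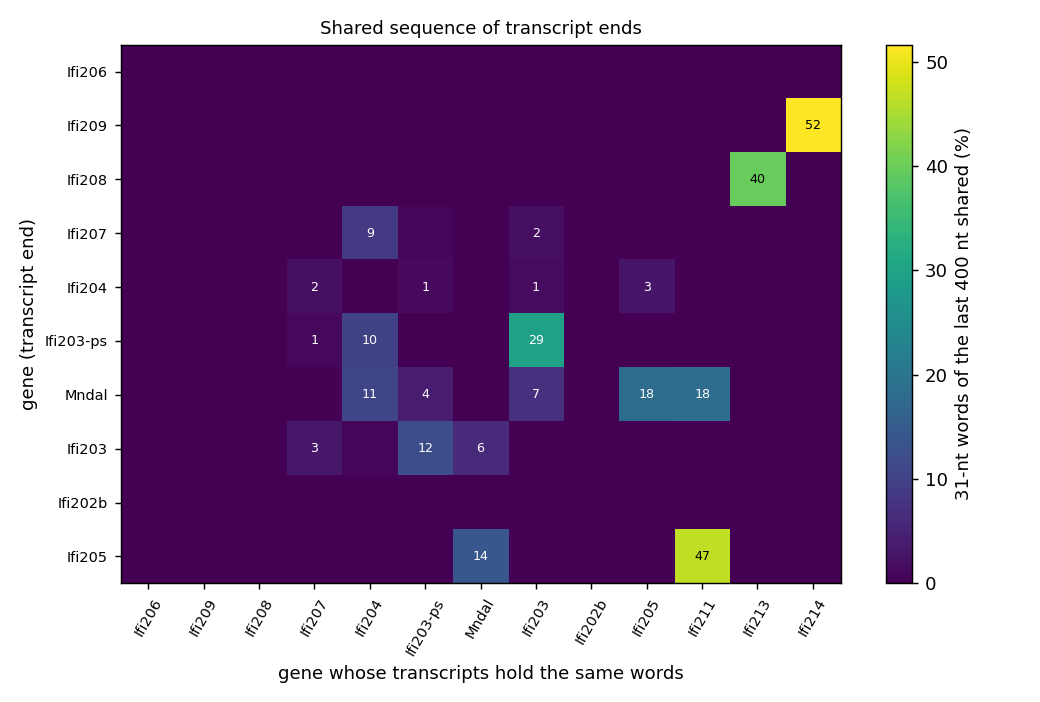
Percentage of 31-nt words from the last 400 nt of each gene's transcripts (rows, in chromosome order) that also occur in transcripts of the gene in the column; only cells of at least 1% carry a figure. The brightest cells are Ifi209 with Ifi214 (51.6%), Ifi205 with Ifi211 (46.6%) and Ifi208 with Ifi213 (39.55%), each a partner outside the 10 genes.

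Ifi205, whose protein has been tied in mouse cells to adipocyte and macrophage differentiation, was low in castrated ventricles of both genotypes. In gene-trap castrated libraries it had a lowest, median and highest level of 0.503, 0.691 and 1.18 CPM, from 4 to 10 counts. In wild-type castrated libraries these were 0.813, 1.24 and 2.50 CPM, from 6 to 17 counts. The gene-trap sham libraries had 3.21, 3.55 and 8.70 CPM, from 21 to 71 counts, and the wild-type sham libraries 2.94, 4.43 and 5.69 CPM, from 21 to 47 counts. No castrated library reached the lowest sham library, whereas within each surgery the genotypes overlapped.

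The means were 0.779 ± 0.229 CPM in gene-trap castrated (SD, n = 7), 1.49 ± 0.721 CPM in wild-type castrated (n = 7), 4.49 ± 2.12 CPM in gene-trap sham (n = 6) and 4.33 ± 0.907 CPM in wild-type sham libraries (n = 6). Summed over a group, 44 counts in gene-trap castrated libraries had an exact 95% Poisson interval of 32.0 to 59.1, against 178 to 235 around 205 counts in gene-trap sham libraries. The 81 counts in wild-type castrated libraries had an interval of 64.3 to 101, against 168 to 223 around 194 counts in wild-type sham libraries. These intervals cover counting error only, not the spread between libraries, and do not test a contrast that chose the gene. The log2 fold change, castrated minus sham, was -2.50 (SE 0.306) in gene-trap mice and -1.55 (SE 0.285) in wild-type mice. The effect in gene-trap mice minus that in wild-type mice was -0.95 (SE 0.423). These values stand as description because this contrast chose the gene. Also as description, the fold change in gene-trap mice ranged from -2.63 to -2.19 across the fits with 1 library left out. That in wild-type mice ranged from -1.71 to -1.44.

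Between genotypes the gene was also described within each surgery. In sham ventricles, a contrast that did not choose it, Ifi205 differed by a log2 fold change of 0.08 (SE 0.261), and edgeR's quasi-likelihood test gave an adjusted p of 0.853. Leaving out gene-trap sham replicate 7, the library at 8.70 CPM, turned this value to -0.23. In castrated ventricles Ifi205 did not pass the count filter. In the fit to all libraries its log2 fold change there was -0.89 (SE 0.327), gene trap minus wild type. It did not pass in that fit (adjusted p = 0.125, edgeR). The value also uses the castrated libraries whose low levels chose the gene, so it stands as description.

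Within the cluster, Ifi205 made up a small part of the tags after castration. Its share of the counts of all 10 genes had a lowest, median and highest value of 0.879%, 1.26% and 2.78% in gene-trap castrated and 1.21%, 1.86% and 4.04% in wild-type castrated libraries. The shares were 4.89%, 5.67% and 11.6% in gene-trap sham and 6.56%, 11.3% and 15.2% in wild-type sham libraries. The castrated libraries all lay below the sham libraries on this scale too. The share mixes the level of Ifi205 with the levels of Mndal and Ifi203, which held most of the remaining counts.

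**Figure D2:**
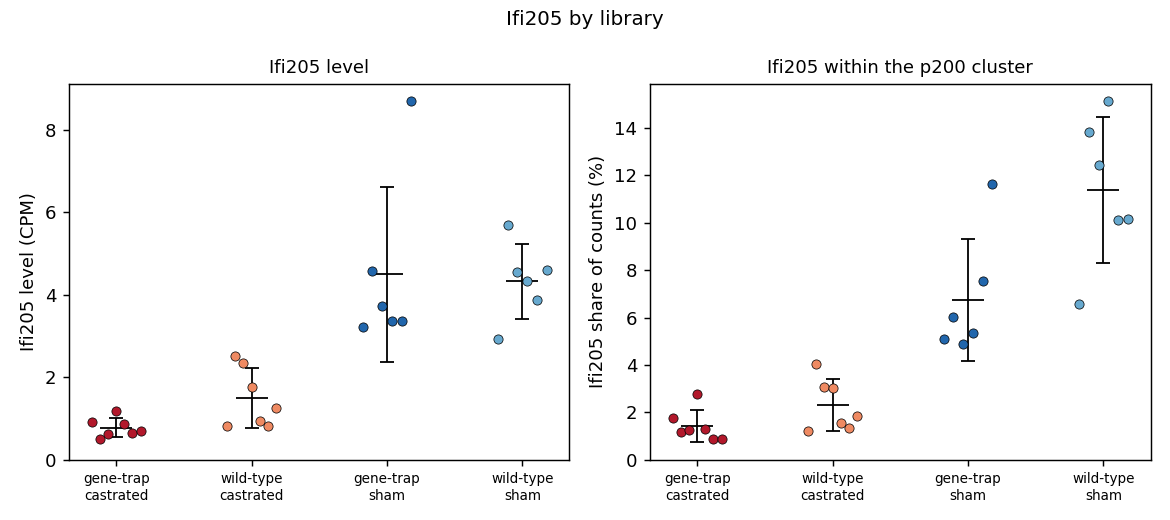
Ifi205 in each library (points) with mean and SD (bars), as CPM at left and as a percentage of the summed counts of all 10 p200 genes at right, by genotype and surgery. The castrated libraries, at 0.503 to 2.50 CPM, all lie below the sham libraries, at 2.94 to 8.70 CPM.

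The partner Ifi211 also fell with castration in gene-trap mice, but did not fall in wild-type mice. This gene was named after its values were seen, so its adjusted p-values are no independent evidence. Ifi211 had 3 to 13 counts in gene-trap castrated and 13 to 29 in gene-trap sham libraries. Of all genes, 0.155% were called higher and 0.252% lower for castration in gene-trap mice. For the interaction these shares were 11.8% and 8.35%. The level of Ifi211 averaged 0.875 CPM in gene-trap castrated and 2.37 CPM in gene-trap sham libraries. The log2 fold change was -1.42 (SE 0.326, adjusted p = 0.0416, edgeR). In wild-type libraries it averaged 1.78 CPM after castration and 1.396 CPM after sham surgery, with a log2 fold change of 0.36 (SE 0.320, adjusted p = 0.388, edgeR). The castration effects of Ifi211 differed between genotypes by -1.78 (SE 0.457, adjusted p = 0.0105, edgeR interaction). The highest Ifi211 level among gene-trap sham libraries, 3.55 CPM from 29 counts, was in replicate 7. In that library Ifi205 was at 8.70 CPM, its own highest level. The part that shared transcript ends play in the Ifi205 values was not tested.

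Most other p200 genes were higher, not lower, in castrated than in sham wild-type mice. Of the 6 tested genes other than Ifi205, Mndal, Ifi203, Ifi203-ps, Ifi204 and Ifi207 rose, none fell and Ifi208 did not pass the test. Over the 12291 genes tested, 19.1% were called higher and 21.3% lower. The median log2 fold change of the 7 tested genes, Ifi205 included, was 0.79, against -0.02 over all genes. The filter can favour genes that are high in 1 group, so this count describes the tested genes and not all 10. The wild-type sham libraries of this comparison are those that stood apart on the first principal component, and the part of that separation in the results was not tested. Markers of heart cell types moved in the same comparison: of 8 cardiomyocyte markers, 6 fell and none rose, and Wt1, the 1 tested epicardial marker, rose (log2 fold change 1.19, adjusted p = 0.00267, edgeR). Their part in the p200 values was not tested.

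Mndal, the mouse relative of the human myeloid nuclear differentiation antigen, had a lowest, median and highest level of 21.2, 23.8 and 32.1 CPM in wild-type castrated libraries and of 10.4, 13.8 and 16.2 CPM in wild-type sham libraries. These groups did not overlap. The log2 fold change was 0.91 (SE 0.189, adjusted p = 0.000756, edgeR). Ifi203, which encodes the p200 protein p203, had 22.8, 25.4 and 27.9 CPM in wild-type castrated against 9.52, 14.7 and 21.5 CPM in wild-type sham libraries. Here too every castrated library was above every sham library, with a log2 fold change of 0.79 (SE 0.160, adjusted p = 0.000656, edgeR).

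Ifi204 encodes p204, a mouse sensor of cytosolic DNA often set beside human IFI16. It had 1.25, 3.03 and 6.04 CPM in wild-type castrated libraries, against 0.288, 1.16 and 2.37 CPM in wild-type sham libraries. The groups overlapped, and the log2 fold change was 1.44 (SE 0.416, adjusted p = 0.00739, edgeR). The pseudogene Ifi203-ps had 1.88, 2.97 and 4.76 CPM in wild-type castrated libraries, against 0.242, 1.12 and 2.93 CPM in wild-type sham libraries. Its groups overlapped through replicate 6 of the sham group, and its log2 fold change was 1.29 (SE 0.397, adjusted p = 0.0111, edgeR). A transcript end that shares 29.5% of its words with Ifi203 stands behind these counts.

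Ifi207 had 2.66, 3.41 and 4.83 CPM in wild-type castrated libraries and 1.15, 1.90 and 3.77 CPM in wild-type sham libraries. The groups overlapped, and the log2 fold change was 0.77 (SE 0.264, adjusted p = 0.0208, edgeR). This call was lost without wild-type sham replicate 1 (adjusted p = 0.0526) or replicate 4 (adjusted p = 0.0646). Ifi208 had 0.464, 0.965 and 1.55 CPM in wild-type castrated and 0.605, 1.33 and 2.65 CPM in wild-type sham libraries. The ranges overlapped widely, with a log2 fold change of -0.43 (SE 0.382, adjusted p = 0.378, edgeR).

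For castration in gene-trap mice, none of the 6 other tested p200 genes passed the edgeR test, none had an unadjusted p under 0.05, and limma called none of them. DESeq2 called none either, but gave no adjusted p for Ifi208, Ifi204, Ifi207 and Ifi203-ps. Of 12291 genes, 0.155% were called higher and 0.252% lower. These 6 genes had log2 fold changes of -0.14 to 0.08, with adjusted p from 0.683 to 0.943 in edgeR. Mndal had a lowest, median and highest level of 15.0, 20.7 and 35.4 CPM in gene-trap castrated libraries, against 14.8, 26.5 and 31.8 CPM in gene-trap sham libraries. Ifi203 had 17.5, 21.2 and 30.9 CPM in gene-trap castrated libraries, against 19.8, 27.2 and 29.9 CPM in gene-trap sham libraries. In both genes the groups overlapped over most of their range.

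The gene-trap castrated libraries were themselves spread out. Replicates 1 to 4, which lay apart on the second principal component, had 15.0 to 20.7 CPM of Mndal, whereas replicates 5 to 7 had 29.3 to 35.4 CPM. For Ifi203 these were 17.5 to 21.2 CPM and 26.5 to 30.9 CPM. Ifi205 had 0.503 to 1.18 CPM in replicates 1 to 4 and 0.652 to 0.874 CPM in replicates 5 to 7. Thus Mndal and Ifi203 separated these libraries. Ifi205 showed no such separation, but with 4 to 10 counts per library it could hardly have shown one. The replicates were set apart by a component of all genes, so no test was made between them.

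**Figure D3:**
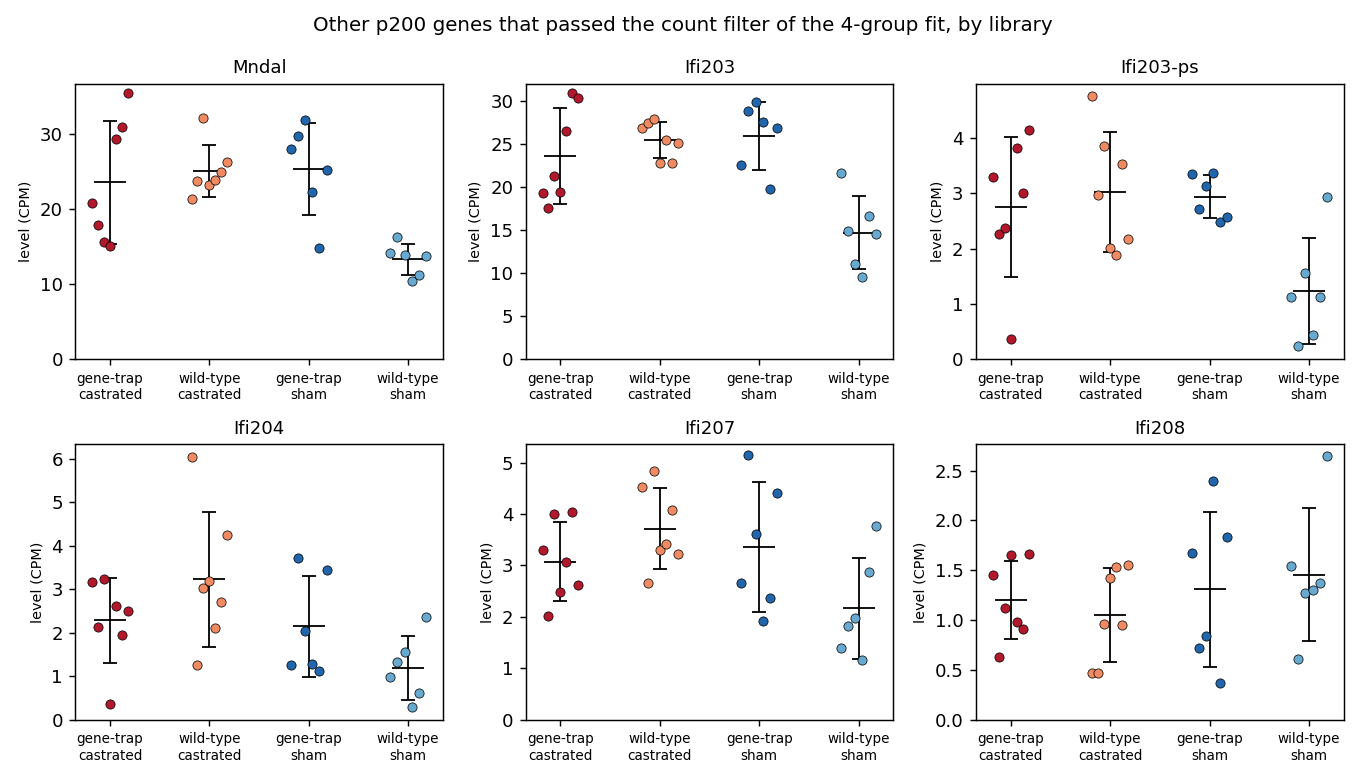
Levels (CPM) of 6 other p200 genes in each library (points) with mean and SD (bars), by genotype and surgery; the vertical scale differs between panels. Mndal and Ifi203 are at 21.2 to 32.1 and 22.8 to 27.9 CPM in wild-type castrated libraries, above the 10.4 to 16.2 and 9.52 to 21.5 CPM of wild-type sham libraries.

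The difference between the castration effects was tested as an interaction, the effect in gene-trap mice minus that in wild-type mice. It was below 0 and passed the test for Ifi203 (-0.93, SE 0.223, adjusted p = 0.00775, edgeR) and Mndal (-1.02, SE 0.261, adjusted p = 0.0105, edgeR). Among all genes, 8.35% were called lower and 11.8% higher. Ifi203-ps (-1.39, adjusted p = 0.0626), Ifi204 (-1.36, adjusted p = 0.0851) and Ifi207 (-0.90, adjusted p = 0.0745) did not pass, nor did Ifi208 (0.33, adjusted p = 0.691). Without wild-type sham replicate 6 the count was 5 genes, with Ifi203-ps, Ifi204 and Ifi207 added. Without gene-trap castrated replicates 1 to 4 it was 0, and none of 12693 genes was called, with 1721 of them at an unadjusted p under 0.05.

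The gene trap in sham ventricles was compared with the same wild-type sham libraries, so its values share that control with the castration effect in wild-type mice. Mndal, Ifi203 and Ifi203-ps rose, none of the 10 genes fell, 4 tested genes did not pass and 3 were not tested. The share of all 11569 genes called higher was 11.9%, and 14.3% were called lower. The 7 tested genes had a median log2 fold change of 0.84, against 0.02 over all genes. The separation of the wild-type sham libraries on the first principal component touches these values as well. In the same comparison the cardiomyocyte markers Myl3 (-0.83) and Actc1 (-0.39) fell, Ryr2 (0.39) rose, and Wt1 rose (1.24, adjusted p = 0.00453, edgeR), and their part was not tested.

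Mndal had 14.8, 26.5 and 31.8 CPM as the lowest, median and highest of the gene-trap sham libraries and 10.4, 13.8 and 16.2 CPM in wild-type sham libraries. Gene-trap sham replicate 5, at 14.8 CPM, was the only library of its group within the wild-type range. The log2 fold change was 0.95 (SE 0.176, adjusted p = 0.00136, edgeR). Ifi203 had 19.8, 27.2 and 29.9 CPM in gene-trap sham libraries against 9.52, 14.7 and 21.5 CPM in wild-type sham libraries. Only wild-type sham replicate 1 reached the gene-trap range, and the log2 fold change was 0.84 (SE 0.177, adjusted p = 0.00304, edgeR).

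Ifi203-ps had 2.49, 2.93 and 3.36 CPM in gene-trap sham libraries against 0.242, 1.12 and 2.93 CPM in wild-type sham libraries. Replicate 6 of the wild-type group lay inside the gene-trap range and the other 5 below it. The log2 fold change was 1.27 (SE 0.387, adjusted p = 0.0218, edgeR). Ifi204 had 1.12, 1.66 and 3.72 CPM in gene-trap sham libraries and 0.288, 1.16 and 2.37 CPM in wild-type sham libraries, and it did not pass (log2 fold change 0.87, SE 0.427, adjusted p = 0.135, edgeR).

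Ifi207 had 1.92, 3.13 and 5.15 CPM in gene-trap sham libraries and 1.15, 1.90 and 3.77 CPM in wild-type sham libraries. It did not pass either (log2 fold change 0.65, SE 0.319, adjusted p = 0.132, edgeR). Without wild-type sham replicate 6, both Ifi204 (1.17, adjusted p = 0.0425) and Ifi207 (0.87, adjusted p = 0.0400) passed. Across the edgeR fits with 1 library left out, the adjusted p reached 0.311 for Ifi204 and 0.304 for Ifi207. Ifi208 had a log2 fold change of -0.15 (SE 0.417, adjusted p = 0.815, edgeR). In the authors' deposited table, which gives wild type over gene trap, Mndal had a log2 fold change of -0.78 (adjusted p = 0.000103) and Ifi203 of -0.58 (adjusted p = 0.0135). Ifi203-ps (-0.57, adjusted p = 0.138), Ifi204 (-0.18, adjusted p = 0.721) and Ifi207 (-0.08, adjusted p = 0.892) did not pass in the authors' deposited table.

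In castrated ventricles the genotypes were compared over the 5 p200 genes that passed the filter. None passed the edgeR test, and none had an unadjusted p under 0.05, while DESeq2 and limma also called 0 of them. Of all 11693 genes, 0.205% were called. The log2 fold changes, gene trap minus wild type, ran from -0.52 in Ifi204 to -0.08 in Mndal, with adjusted p from 0.404 to 0.858 in edgeR. Mndal had 15.0, 20.7 and 35.4 CPM as the lowest, median and highest of the gene-trap castrated libraries and 21.2, 23.8 and 32.1 CPM in wild-type castrated libraries, so that the wild-type range lay inside the gene-trap range. A p above the threshold does not show that the levels are equal.

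**Figure D4:**
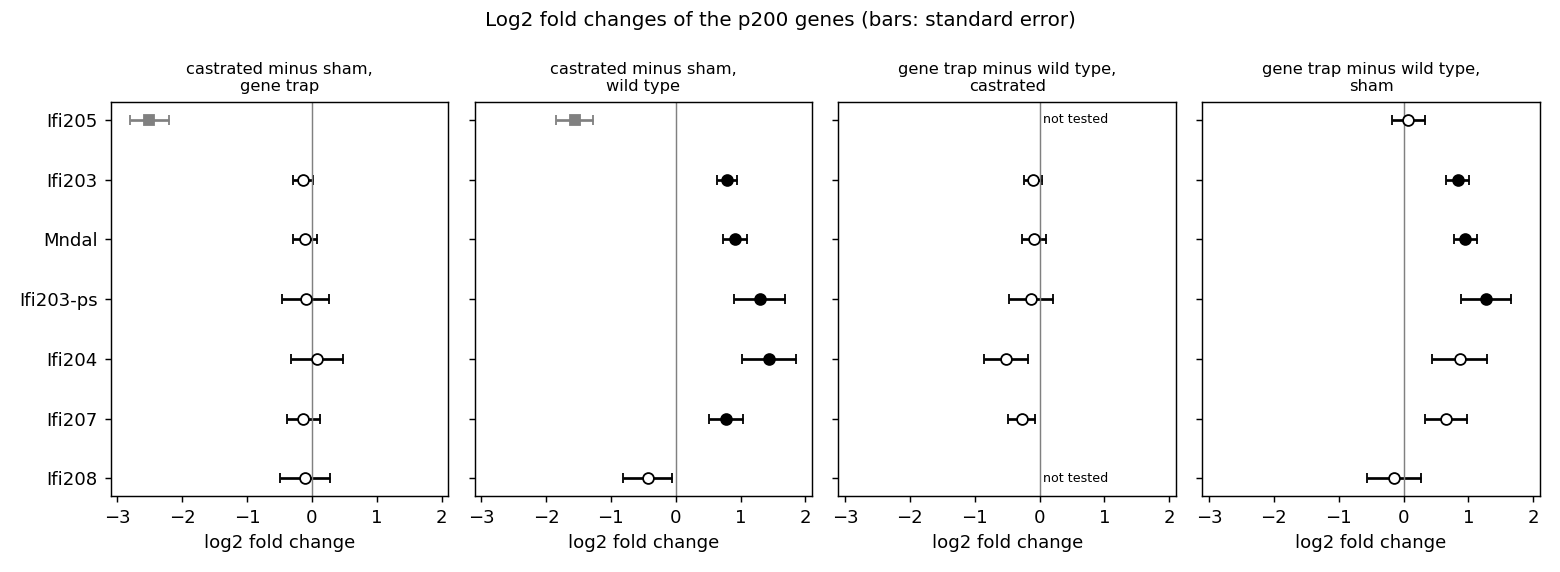
Log2 fold changes (points) with standard errors (bars) of the p200 genes for castration in each genotype and for the gene trap in each surgery group. Filled circles passed an adjusted p of 0.05 in edgeR, open circles did not, and grey squares mark Ifi205 where the contrast chose it; Ifi205 lies at -2.50 and -1.55 for castration while 5 other genes lie at 0.77 to 1.44 for castration in wild-type mice.

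The remaining genes were near the counting limit. Ifi206 had 29 counts over the 7 gene-trap castrated libraries, 43 over the 7 wild-type castrated, 18 over the 6 gene-trap sham and 7 over the 6 wild-type sham libraries. Of the 43 counts, 21 came from wild-type castrated replicate 7. Without the count filter it was called for castration in wild-type mice (log2 fold change 2.16, SE 0.748, adjusted p = 0.0345, edgeR). Ifi209 had 37 counts in gene-trap castrated, 36 in wild-type castrated, 27 in gene-trap sham and 27 in wild-type sham libraries, and its log2 fold changes without the filter were between -0.02 and 0.14. Ifi202b, a p200 gene whose protein lacks the pyrin domain, had 16 counts in wild-type castrated replicate 1 and 0 in the other 25 libraries. The authors' deposited table lists it with a mean signal of 0 in both surgery groups.

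Across libraries the members did not form 1 block. After subtraction of group means, log2 CPM of Ifi203 and Mndal had a Pearson r of 0.644, Ifi204 and Ifi207 of 0.619, and Ifi204 and Ifi203-ps of 0.592 over 26 libraries. Ifi205 had r between -0.247 and 0.181 with the other 5 genes that averaged at least 10 counts per library. These values describe pairs that share libraries and, for some, sequence. The ratio of Mndal to Ifi203 counts had a median of 1.02 in gene-trap castrated, 1.02 in wild-type castrated, 0.983 in gene-trap sham and 1.02 in wild-type sham libraries, with single libraries between 0.656 and 1.26.

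Among the 12291 genes, those most like Ifi205 after subtraction of group means were Sphk1 (r = 0.693), Sall1 (r = 0.633), Gabpb1 (r = 0.632), Plvap (r = 0.590) and Tbccd1 (r = 0.587). Without that subtraction they were C3 (r = 0.814), Gm17018 (r = 0.773), Tnni2 (r = 0.768), Dpep1 (r = 0.763) and Jmjd6 (r = 0.761), over the same 26 libraries. The second measure includes the differences between group means, which chose Ifi205. C3, the central complement component, had r = 0.138 within groups, against 0.814 over all libraries. Each list holds the 5 highest values of r outside the family, picked from 12291 genes. Whether such values exceed chance was not tested. Ifi205 had only 4 to 10 counts in gene-trap castrated and 6 to 17 in wild-type castrated libraries.

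Interferon-stimulated genes other than the p200 cluster are given beside the family from a list of 46. After castration in wild-type mice, 21 of 41 tested genes rose, 1 fell and 19 did not pass, with a median log2 fold change of 0.59 against -0.02 over all genes, of which 19.1% were called higher and 21.3% lower. The 4 with the smallest p were the immunoproteasome subunit gene Psmb8 (0.91), Ifit2 (1.45), the guanylate-binding protein gene Gbp3 (1.07) and Parp9 (1.14). For castration in gene-trap mice none of 41 passed in edgeR or limma and 1 in DESeq2. In edgeR 3 had an unadjusted p under 0.05, and the median log2 fold change was 0.06. Of all 12291 genes, edgeR called only 0.155% higher and 0.252% lower in this comparison. In sham ventricles, 14 of 38 rose and 1, Ifi35, fell in gene-trap relative to wild-type libraries, with a median of 0.54, against 11.9% of all genes called higher and 14.3% lower. In castrated ventricles none of 39 passed in edgeR and 1 each in DESeq2 and limma, with 8 at an unadjusted p under 0.05 in edgeR. Of all 11693 genes, edgeR called only 0.205% there. The interaction was called below 0 for 16 of 41 and above 0 for Ifi35, against 8.35% of all genes called lower and 11.8% higher.

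Within the signalling list of 27 genes, 22 of the 24 tested did not pass after castration in wild-type mice, 2 rose and none fell, against 19.1% of all genes called higher and 21.3% lower. Ddx58, which encodes the RNA sensor RIG-I, rose, averaging 10.0 CPM in wild-type castrated and 6.52 CPM in wild-type sham libraries (log2 fold change 0.62, SE 0.176, adjusted p = 0.00667, edgeR). In sham ventricles Ddx58 (0.50) rose and the receptor gene Ifngr1 (-0.41) fell in gene-trap relative to wild-type libraries. For castration in gene-trap mice none of the 24 passed in edgeR or limma and 1 in DESeq2. In edgeR 4 had an unadjusted p under 0.05. Of all genes, edgeR called only 0.155% higher and 0.252% lower in this comparison. The lists were drawn up with earlier results on these samples known, so their counts are no independent evidence of direction.

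In bulk tissue, fewer cells of a type and less RNA per cell cannot be told apart. The 22 leukocyte and macrophage markers, cells in which p200 genes are well known, summed to 316 to 492 CPM (gene-trap castrated), 367 to 704 CPM (wild-type castrated), 398 to 580 CPM (gene-trap sham) and 444 to 690 CPM (wild-type sham). No marker of this list was at 0 in all libraries. Of 17 tested leukocyte markers, Mrc1 and Lyve1 rose and C1qb fell after castration in wild-type mice, where 19.1% of all genes were called higher and 21.3% lower. In gene-trap mice none passed in edgeR, DESeq2 or limma, with 4 at an unadjusted p under 0.05 in edgeR. Of all genes, edgeR called only 0.155% higher and 0.252% lower after castration in these mice. In sham ventricles Lyve1, Mrc1 and S100a9 rose and C1qa fell in gene-trap relative to wild-type libraries, against 11.9% of all genes called higher and 14.3% lower.

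The 10 fibroblast markers summed to 1767 to 2491 CPM (gene-trap castrated), 1807 to 2146 CPM (wild-type castrated), 1948 to 2372 CPM (gene-trap sham) and 1831 to 2210 CPM (wild-type sham). The 8 adventitial Pi16 fibroblast markers had sums of 302 to 432 CPM (gene-trap castrated), 290 to 409 CPM (wild-type castrated), 270 to 428 CPM (gene-trap sham) and 313 to 414 CPM (wild-type sham). These ranges overlapped between castrated and sham libraries, but single markers moved. After castration in wild-type mice 4 of 10 fibroblast markers rose, among them the collagen gene Col1a2 (0.96) and the proteoglycan gene Lum (0.41), and Gsn (-0.30) fell. The collagen gene Col3a1 rose as well, averaging 148 CPM in wild-type castrated and 55.9 CPM in wild-type sham libraries (adjusted p = 0.000299, edgeR). Of 8 adventitial markers 4 rose, among them Cd55 (1.08) and Sema3c (0.86), while Cd248 (-0.55) and Pi16 (-0.65) fell. In sham ventricles Col1a2 (0.83) and Col3a1 (0.89) rose and Pi16 (-0.73) and Cd248 (-0.56) fell in gene-trap relative to wild-type libraries. For castration in wild-type mice, 19.1% of all genes were called higher and 21.3% lower. For the gene trap in sham ventricles these shares were 11.9% and 14.3%. Both comparisons use the same wild-type sham libraries.

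The 8 adipocyte markers summed to 87.3 to 108 CPM in gene-trap castrated and 95.3 to 134 CPM in gene-trap sham libraries, and to 82.8 to 124 CPM in wild-type castrated and 93.4 to 108 CPM in wild-type sham libraries. Most of each sum came from Adipor2, a receptor gene not restricted to adipocytes, at group means of 85.1 to 92.2 CPM. Cfd, which encodes the adipokine adipsin, averaged 5.46 CPM in gene-trap castrated and 13.9 CPM in gene-trap sham libraries (log2 fold change -1.33, SE 0.610, adjusted p = 0.256, edgeR). Plin1, which encodes a lipid droplet coat protein, averaged 0.967 CPM in gene-trap castrated and 2.06 CPM in gene-trap sham libraries (log2 fold change -1.05, SE 0.679, adjusted p = 0.425, edgeR). None of the 4 tested adipocyte markers passed for castration in gene-trap mice, and their log2 fold changes ran from -1.33 to 0.17. Of all genes, edgeR called 0.155% higher and 0.252% lower there. In wild-type mice Cfd averaged 5.19 CPM after castration and 8.35 CPM after sham surgery (log2 fold change -0.66, adjusted p = 0.417, edgeR), and Pparg, a regulator of adipocyte differentiation, rose (1.24, adjusted p = 0.0225, edgeR).

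The 7 endothelial markers summed to 508 to 639 CPM (gene-trap castrated), 536 to 807 CPM (wild-type castrated), 506 to 714 CPM (gene-trap sham) and 674 to 974 CPM (wild-type sham). After castration in wild-type mice Emcn (-0.58), Egfl7 (-0.59) and Pecam1 (-0.41) were among 4 that fell, and Cdh5 (0.57) rose. Of all genes, 19.1% were called higher and 21.3% lower there. In sham ventricles 4 of the 7, Egfl7 (-0.88), Pecam1 (-0.57), Tie1 (-0.48) and Emcn (-0.44), fell in gene-trap relative to wild-type libraries. Of all genes, 11.9% were called higher and 14.3% lower in sham ventricles. The 6 epicardial and mesothelial markers had mean sums of 9.94 ± 3.75 CPM (SD, gene-trap castrated), 10.1 ± 3.002 CPM (wild-type castrated), 9.83 ± 3.33 CPM (gene-trap sham) and 5.12 ± 2.55 CPM (wild-type sham). The part of these cell types in the p200 values was not tested.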

How the data were processed

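Per the labels' protocols, left ventricle RNA was made into QuantSeq forward 3′ end libraries. The submitters' processing notes name, with no role or order, the builds GRCm38 and mm10 and the tools DESeq2 1.22.2, featureCounts 1.6.0, STAR, FastQC and CASAVA 1.4. The deposited tables hold raw counts per gene and library, per the file headers. The authors' comparison in those tables holds, per the file headers, a mean signal over libraries, the log2 fold change and its standard error, a score that divides these, and raw and adjusted p-values.

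Genes were tested with edgeR 4.0.16 in R 4.3.3 (robust quasi-likelihood F test, TMM scaling, filterByExpr, Benjamini-Hochberg adjustment over all genes tested, threshold 0.05). Genotype was tested within each surgery group, and castration and the interaction in a fit to all 26 libraries. A standard error is the size of the log2 fold change divided by the root of F. Gene counts per library were 6357485 to 9399241, and unassigned reads were left out of library sizes. CPM use TMM factors, and log2 CPM a prior count of 2. Scripts were tested on simulated data.

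Named genes were the members, Uty, up to 4 genes per list by smallest p or every called gene where fewer, and the 5 most like Ifi205 per measure. Ifi211 and Ifi35 were named after their values were seen. A called gene of the signalling list is not reported here. Members, lists, motifs and tests were chosen with earlier results of these data known. The result that singled out Ifi205 is not recorded in the sources used here, and the castration contrasts were treated as that result. Alternatives were a threshold of 0.01, DESeq2 size factors, DESeq2 1.42.0, limma 3.58.1 voom with sample weights, no count filter, a group mean of at least 10 counts, library sizes without mitochondrially encoded genes, a replicate block, other libraries in the fit, the authors' adjusted p and each library left out. A within-group component as covariate and the joint removal of gene-trap castrated replicates 1 to 4 were added after seeing the data.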

Additional observations from a re-analysis of the deposited data

Results flagged for a closer look

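Levels of the 10 genes were examined for single libraries far from their group in 37 groups of 6 or 7 libraries. In these, 4 libraries stood apart. The cutoff is meant to set apart about 5% of groups by chance when values are normally distributed. Low counts with many zeros are not, so the 4 cannot be set against this share. Ifi205 in gene-trap sham replicate 7 was at 8.70 CPM, against 3.21 to 4.58 CPM in the other 5. Ifi206 in wild-type castrated replicate 7 was at 2.18 CPM and in wild-type sham replicate 5 at 0.623 CPM, each above the rest of its group. Ifi202b in wild-type castrated replicate 1 was at 1.86 CPM, with 0 counts in the other libraries.

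The effects of castration differed between genotypes for Ifi203 (-0.93 on the log2 scale, gene trap minus wild type) and Mndal (-1.02), by the edgeR interaction test. Both values kept their sign, at -0.63 and -0.59, without gene-trap castrated replicates 1 to 4, but neither passed there (adjusted p = 0.279 and 0.291).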

How the results depend on the processing

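Numbers of p200 genes called include Ifi205 for castration, where the contrasts chose it, so its call there is no evidence. For castration in gene-trap mice the count stayed at 1, under every alternative that gave a value, and that gene was Ifi205 itself. DESeq2 gave Ifi205 no adjusted p for that comparison. For genotype in castrated mice the count stayed at 0. For castration in wild-type mice it was 6, with 4 at a threshold of 0.01, 7 without the count filter, which adds Ifi206, and 5 to 6 with 1 library left out. For genotype in sham mice it was 3, with 2 at a threshold of 0.01, 5 under the within-group covariate and 3 to 5 with 1 library left out. For the interaction it was 2, with 1 at a threshold of 0.01, 4 by limma voom, 5 with the covariate, 0 without gene-trap castrated replicates 1 to 4 together and 2 to 5 with 1 library left out; the cause was not tested. Replicate numbers were not used to pair samples in the main fits. Libraries with the same number had residual correlations from -0.400 to 0.323. Libraries with different numbers were not compared in this way, so these values cannot settle whether the numbers pair samples. With the number as a replicate block the counts were 3 for genotype in sham, 0 for genotype in castrated, 6 for castration in wild type, 1 for castration in gene trap and 3 for the interaction.

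Of 832 single-gene values under alternatives, 781 kept direction and side of the threshold, 18 newly passed, 5 no longer passed and 28 changed sign, none of which passed before or after. For genotype in sham, Ifi205 changed to -0.025 by limma voom and -0.198 with the replicate block, and ranged from -0.225 to 0.172 with 1 library left out. Ifi208 changed to 0.067 by limma voom, with a range of -0.388 to 0.099. For genotype in castrated, Ifi203 changed to 0.00760 by limma voom. Without gene-trap castrated replicates 1 to 4, Ifi203 changed to 0.208, Ifi203-ps to 0.289 and Mndal to 0.359, and with 1 library left out Ifi203-ps ranged from -0.256 to 0.068 and Mndal from -0.209 to 0.0024. For castration in gene-trap mice, removing these 4 libraries changed Ifi203 to 0.197, Ifi203-ps to 0.345 and Mndal to 0.356, and the replicate block changed Ifi208 to 0.034. With 1 library left out, Ifi208 ranged from -0.301 to 0.138, Ifi204 from -0.054 to 0.314, Ifi207 from -0.241 to 0.040 and Ifi203-ps from -0.218 to 0.104. Depth most limits the genes under 10 counts per library, which are Ifi202b, Ifi206, Ifi208 and Ifi209.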
